A study of Mus musculus with 32 samples.

Results

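The genes described here mark the inhibitory interneurons of the cerebral cortex: Gad1, Gad2, Slc32a1, Sst, Npy, Vip, Pvalb, Calb2, Lhx6, and Dlx1. They were chosen by name, and all 10 were found among the 49671 genes of the count table. Their RNA was measured by sequencing in cortical neurons grown from forebrains of wild-type C57BL/6 mice of embryonic day 17 to 18. Neurons received no oligoribonucleotide or 10 µg/mL of a synthetic one, either Mut.oligo or a miRNA sequence, that of miR-124-5p in some groups and of miR-92a-1-5p in others. RNA was taken at 6 h or at 5 d. Mut.oligo carries a mutated let-7b sequence and served as the control for sequence specificity. Each of the 8 groups held 4 libraries, labelled as biological replicates, and experiment batches are given in the labels, too. All groups share the culture in neuronal medium, and no sorting of cells is described, so that every library mixes interneurons with excitatory neurons and glia.

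Cortical interneurons release GABA and arise outside the cortex, in the ganglionic eminences of the ventral forebrain. Dlx transcription factors act early in all of them, and Lhx6 acts in those of the medial eminence, from which the somatostatin and parvalbumin cells come, whereas the cells with vasoactive intestinal peptide and many with calretinin come from the caudal eminence. Gad1 and Gad2 encode the 2 enzymes that make GABA from glutamate, and Slc32a1 encodes the transporter that loads it into synaptic vesicles. Sst, Npy, and Vip encode neuropeptides, and Pvalb and Calb2 encode the calcium-binding proteins parvalbumin and calretinin. In rodents, parvalbumin appears late, mostly after birth.

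Of the exposures, the mature sequence of miR-92a-1-5p is given by RefSeq, which places it at chr14:115044437-115044459 on the plus strand of GRCm38.p6. It is shown because it is the agent added to the neurons, with the seed, bases 2 to 8, in capitals:
miR-92a-1-5p: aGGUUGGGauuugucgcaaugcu

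The upstream windows of Sst and Vip are shown because both encode neuropeptides whose levels moved in opposite directions between 6 h and 5 d. They cover the 250 bases before the RefSeq start of each gene in GRCm38.p6, chr16:23890845-23891094 on the minus strand for Sst and chr10:5638968-5639217 on the plus strand for Vip. Capitals mark TGACG on either strand, the core of the cAMP response element:
Sst: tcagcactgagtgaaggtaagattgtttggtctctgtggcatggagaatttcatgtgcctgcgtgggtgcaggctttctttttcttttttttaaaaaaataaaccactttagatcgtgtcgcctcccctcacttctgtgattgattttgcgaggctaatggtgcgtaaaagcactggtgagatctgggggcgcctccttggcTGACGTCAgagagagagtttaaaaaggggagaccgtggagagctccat
Vip: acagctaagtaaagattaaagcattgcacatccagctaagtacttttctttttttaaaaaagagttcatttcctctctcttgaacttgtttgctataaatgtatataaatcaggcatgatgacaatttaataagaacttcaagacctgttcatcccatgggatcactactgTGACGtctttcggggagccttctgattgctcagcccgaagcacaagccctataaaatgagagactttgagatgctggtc
TGACG was sought on both strands of such windows, of which 12 were given for 9 of the 10 genes and none for Calb2. It was held by 3 of the 12 windows, those of Gad2, Sst, and Vip, against 17.8% of 32851 windows of all genes. The full palindrome TGACGTCA, which contains TGACG on each strand, was found in 1 of the 12 windows, that of Sst, and in 1.55% of all windows. The windows of Gad1, Slc32a1, Npy, Pvalb, Lhx6, and Dlx1 held neither.

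The libraries held between 24514090 and 73626029 counted reads. Levels are given as CPM, the reads of a gene scaled by the total of its library, and 3 reads correspond to between 0.0407 and 0.122 CPM, a floor that covers counting error only. Of the 16 libraries of 5 d, 3 from 2 experiment batches were set apart after their values were seen, namely untreated replicate 3, miR-124-5p replicate 1, and miR-92a-1-5p replicate 1. In them, 12 transcription factors of midbrain, hindbrain, and diencephalon, such as En1, Pax7, and Barhl1, summed to between 19.1 and 22.7 CPM, against 8.42 to 11.1 CPM in the other 13. Their effect on the estimates is given beside the results it touches. At 6 h, the same sum was highest in 3 libraries of 1 batch, untreated replicate 3, miR-124-5p replicate 4, and miR-92a-1-5p replicate 1, with 16.2 to 17.3 CPM against 5.05 to 13.3 CPM in the other 13. That batch, too, was picked after its values were seen, and it holds no Mut.oligo library. Of the 10 genes, 3 were above the other 13 libraries in all of them, Gad2, Slc32a1, and Npy, against 3.1% of all genes tested at 6 h, and Lhx6 was in each of them the highest of its group.

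To order the genes by level, CPM were divided by the joint length of all annotated exons of each gene (RPKM). This length was 721 bases for Sst, 566 for Npy, and 7639 for Gad1, and the order depends on it. By CPM alone, untreated neurons after 6 h had 244 ± 16.7 for Gad1, 231 ± 14.2 for Sst, and 35.8 ± 8.68 for Npy (SD, n = 4). In untreated neurons after 6 h, Sst led with 321 ± 19.6 RPKM (SD, n = 4), followed by Npy with 63.2 ± 15.3 RPKM. Dlx1 with 33.1 ± 0.784 RPKM and Gad1 with 31.9 ± 2.19 RPKM overlapped in their libraries. Lhx6, Calb2, and Slc32a1 came next at 23.4 ± 1.70, 20.8 ± 1.59, and 20.3 ± 1.99 RPKM, where neighbours overlapped, and Gad2 lay below them at 16.3 ± 0.728 RPKM. Vip and Pvalb were near the floor at 0.108 ± 0.0659 and 0.0481 ± 0.0578 RPKM, more than an order of magnitude below the others. After 5 d, Sst and Npy still led at 190 ± 60.9 and 86.7 ± 20.7 RPKM, and Calb2 stood in place 3 at 54.1 ± 6.84 RPKM, overlapping with Gad1 at 41.7 ± 8.89 RPKM. Slc32a1 and Gad2 overlapped at 27.1 ± 4.34 and 23.4 ± 5.77 RPKM, and the transcription factors Dlx1 and Lhx6 had moved to places 7 and 8 with 15.2 ± 2.52 and 13.7 ± 0.674 RPKM, again overlapping. Vip at 1.70 ± 0.906 RPKM and Pvalb at 0.529 ± 0.680 RPKM remained last. The defining genes of the medial eminence subtypes were thus unequal, with Sst among the well-measured genes and Pvalb barely detected.

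**Figure D1:**
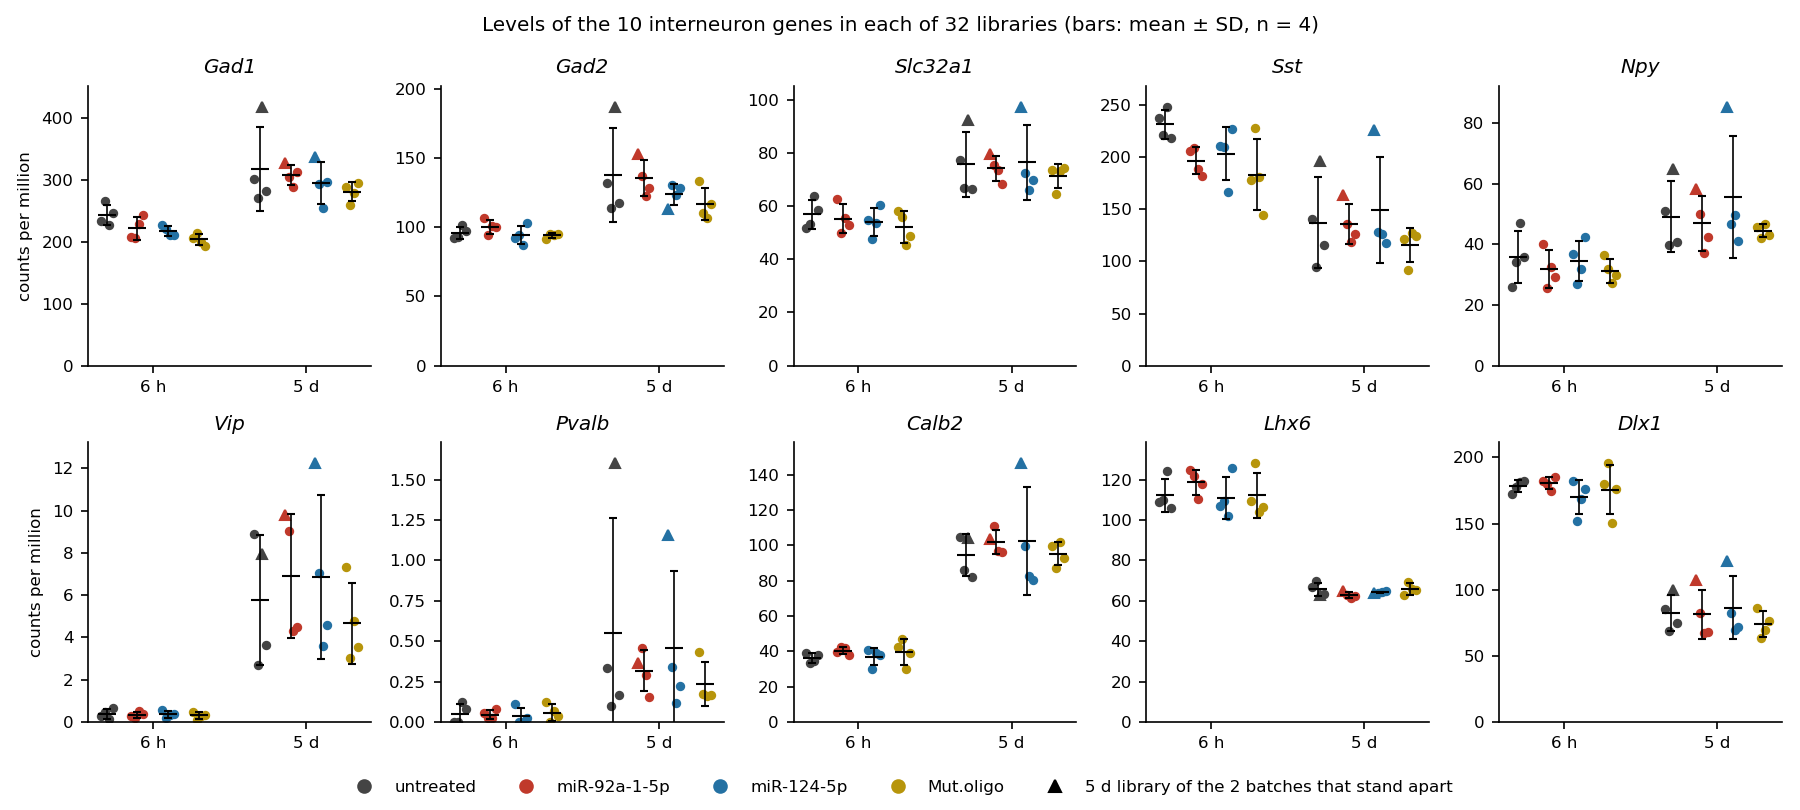
CPM of the 10 genes in each library, by time and condition, with each vertical axis starting at 0. Horizontal bars give the mean and error bars the SD of 4 libraries, clipped at 0. Vip lies between 0.0912 and 0.636 CPM at 6 h and between 2.67 and 12.3 CPM at 5 d, while Sst, Lhx6, and Dlx1 are lower at 5 d.

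To see how these genes differed between the time points, the 5 d libraries were compared to the 6 h libraries within each condition. In untreated neurons, Vip, Calb2, and Pvalb were higher after 5 d, and Sst, Lhx6, and Dlx1 were lower, whereas Gad1, Gad2, Slc32a1, and Npy differed by less than the minimum change of 0.5 on the log2 scale. A gene was counted as passed at an adjusted p under 0.05 (edgeR quasi-likelihood test, Benjamini-Hochberg over all genes tested) if it also changed by more than 0.5 on the log2 scale. Of the 10 genes, 3 rose and 3 fell, where 19.1% of all 20425 genes tested rose and 14.3% fell. The median log2 fold change was 0.41 over the 10 genes and 0.04 over all genes. As no experiment batch holds libraries of both times, the time in culture and the batch cannot be told apart, and in these bulk samples a lower number of cells of a type and less RNA per cell cannot be told apart either.

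Coordinates are those of GENCODE M21 on GRCm38. Among the genes for GABA synthesis and vesicular loading, Gad1 (ENSMUSG00000070880, chromosome 2, 70553072 to 70602014, plus strand) was at 234, 266, 228, and 246 CPM in the untreated libraries of 6 h and at 302, 271, 418, and 282 CPM in those of 5 d. All libraries of 5 d lay above those of 6 h. The log2 fold change was 0.37 (SE 0.0776, adjusted p = 0.000188 by edgeR), below the minimum change. Gad2 (ENSMUSG00000026787, chromosome 2, 22622205 to 22693874, plus strand), which encodes the form of the enzyme found at nerve endings, was at 92.2, 92.9, 101, and 97.1 CPM after 6 h and at 132, 113, 187, and 117 CPM after 5 d. Its log2 fold change of 0.50 (SE 0.0951, adjusted p = 5.84e-05 by edgeR) lay just under the minimum change before rounding, and it was 0.52 without a filter on low counts, 0.56 without the batch of 6 h with the highest sum, and 0.35 without replicate 3 of 5 d. Slc32a1 (ENSMUSG00000037771, chromosome 2, 158610767 to 158615748, plus strand) was at 51.6, 53.2, 63.8, and 58.7 CPM after 6 h and at 77.4, 66.7, 92.2, and 66.4 CPM after 5 d. Here, too, the groups did not overlap, with a log2 fold change of 0.39 (SE 0.0970, adjusted p = 0.000992 by edgeR). Without the 3 libraries of 5 d that stood apart, the values of Gad1, Gad2, and Slc32a1 were 0.26, 0.37, and 0.34.

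The neuropeptides did not move together. Sst (ENSMUSG00000004366, chromosome 16, 23889573 to 23890958, minus strand) was at 237, 221, 248, and 218 CPM in untreated neurons after 6 h and at 141, 95.0, 197, and 116 CPM after 5 d. Every 5 d library was below every 6 h library, and the highest of them was replicate 3, 1 of the 3 libraries that stood apart. Sst fell by 0.78 on the log2 scale (SE 0.166, adjusted p = 0.000202 by edgeR), and by 0.95 without the 3 libraries (adjusted p = 4.05e-07 by edgeR). Npy (ENSMUSG00000029819, chromosome 6, 49822710 to 49829507, plus strand), which many somatostatin cells also make, was at 26.0, 34.2, 47.1, and 35.8 CPM after 6 h and at 51.0, 39.8, 64.9, and 40.6 CPM after 5 d. These groups overlapped, and the log2 fold change was 0.43 (SE 0.182, adjusted p = 0.0439 by edgeR), with an adjusted p of 0.0731 without the 3 libraries. Without the batch of 6 h with the highest sum, however, Npy passed with 0.64 (adjusted p = 0.00345 by edgeR).

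Vip (ENSMUSG00000019772, chromosome 10, 5639218 to 5647617, plus strand) differed most of the 10 genes. It was at 0.265, 0.454, 0.121, and 0.636 CPM in the untreated libraries of 6 h, which is 50 reads in all, and at 8.89, 2.67, 7.94, and 3.65 CPM after 5 d, which is 1289 reads. The times were far apart, although the 5 d libraries themselves spread widely. Vip rose with a log2 fold change of 3.91 (SE 0.478, adjusted p = 5.2e-08 by edgeR), or 15-fold, and with 3.77 without the 3 libraries. The promoter windows of Sst and Vip shown above both hold the core of the cAMP response element, as does that of Gad2. Its part in the differences between the times was not tested.

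Of the calcium-binding proteins, Calb2 (ENSMUSG00000003657, chromosome 8, 110137502 to 110168210, minus strand) was at 39.1, 33.5, 34.4, and 38.1 CPM in untreated neurons after 6 h and at 105, 86.2, 104, and 81.9 CPM after 5 d. Calb2 rose with a log2 fold change of 1.36 (SE 0.126, adjusted p = 2.51e-10 by edgeR), and the libraries within each time agreed closely. Without the 3 libraries, the value was again 1.36. Pvalb (ENSMUSG00000005716, chromosome 15, 78191114 to 78206400, minus strand) had 0, 0, 4, and 3 reads after 6 h and 20, 5, 82, and 10 reads after 5 d, or 0.336, 0.101, 1.60, and 0.165 CPM at the later time. The single library with 82 reads was replicate 3, and the groups overlapped. Pvalb passed with a log2 fold change of 3.25 (SE 0.902, adjusted p = 0.00299 by edgeR), but without replicate 3 of 5 d the value was 1.90 and no longer passed (adjusted p = 0.0664 by edgeR). Without all 3 libraries that stood apart, it was 1.92 with an adjusted p of 0.0359 by edgeR.

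Both transcription factors fell. Lhx6 (ENSMUSG00000026890, chromosome 2, 36081953 to 36105408, minus strand) was at 109, 110, 124.3, and 106 CPM in untreated neurons after 6 h and at 66.6, 69.7, 62.8, and 63.3 CPM after 5 d, the tightest group of 5 d among the 10 genes. It fell by 0.79 on the log2 scale (SE 0.0792, adjusted p = 1.34e-09 by edgeR). Dlx1 (ENSMUSG00000041911, chromosome 2, 71528113 to 71533981, plus strand) was at 173, 178, 181, and 182 CPM after 6 h and at 85.7, 68.9, 99.8, and 74.7 CPM after 5 d. Dlx1 fell by 1.13 (SE 0.125, adjusted p = 7.04e-09 by edgeR), and again the library of 5 d with the highest value was replicate 3. Without the 3 libraries, Lhx6 fell by 0.72 and Dlx1 by 1.19. Exons of Lhx6 overlap with those of the predicted gene Gm27953, which lies on the same strand, while Dlx1 and Slc32a1 have antisense partners, Dlx1as and Gm14205, which counting by strand keeps apart.

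The libraries of the 2 times did not overlap for 8 of the 10 genes in untreated neurons, against 47.9% of all genes tested. Under this rule, 5 genes lay higher after 5 d, Gad1, Gad2, Slc32a1, Vip, and Calb2, and 3 lay lower, Sst, Lhx6, and Dlx1.

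The exposed neurons were compared between the times in the same way. With miR-92a-1-5p, 4 of the 10 genes rose and 3 fell, where 18.3% of all genes rose and 15.7% fell. With miR-124-5p, 4 rose and 2 fell, where 19.5% of all genes rose and 14.7% fell. With Mut.oligo, no library of which stood apart, 4 rose and 3 fell, where 18.7% of all genes rose and 15.4% fell. The groups did not overlap for 9 of the 10 genes with miR-92a-1-5p, for 8 with miR-124-5p, and for 10 with Mut.oligo, against 51.5%, 44.6%, and 47.6% of all genes.

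Vip was at 0.275, 0.196, 0.513, and 0.380 CPM after 6 h of miR-92a-1-5p and at 9.82, 9.02, 4.29, and 4.5 CPM after 5 d. With miR-124-5p, it was at 0.584, 0.179, 0.350, and 0.358 CPM and then at 12.3, 7.07, 3.58, and 4.58 CPM. With Mut.oligo, it was at 0.490, 0.0912, 0.301, and 0.335 CPM and then at 7.34, 3.04, 4.78, and 3.57 CPM. As in untreated neurons, all libraries of 6 h lay below all of 5 d. Vip rose with log2 fold changes of 4.33 (SE 0.464, adjusted p = 3.87e-09), 4.19 (SE 0.481, adjusted p = 1.5e-08), and 4.02 (SE 0.512, adjusted p = 9.68e-08), in this order.

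Calb2 was at 39.8, 42.3, 41.9, and 37.6 CPM after 6 h of miR-92a-1-5p and at 103, 111, 96.8, and 95.9 CPM after 5 d. With miR-124-5p, it was at 40.7, 29.7, 38.9, and 38.1 CPM and then at 147, 99.8, 82.6, and 80.4 CPM. With Mut.oligo, it was at 42.6, 47.0, 29.8, and 39.3 CPM and then at 99.5, 87.2, 102, and 92.7 CPM. The times were far apart in each, and the value of 147 CPM belongs to a library that stood apart. Calb2 rose with 1.35 (SE 0.125, adjusted p = 2.25e-10), 1.45 (SE 0.126, adjusted p = 6.19e-11), and 1.31 (SE 0.126, adjusted p = 5.15e-10).

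Pvalb had 10 reads over the 4 libraries of 6 h and 57 over those of 5 d with miR-92a-1-5p, 4 and 86 with miR-124-5p, and 6 and 50 with Mut.oligo. It passed with miR-92a-1-5p (2.63, SE 0.884, adjusted p = 0.0127) and with miR-124-5p (3.75, SE 1.02, adjusted p = 0.00246), but with Mut.oligo it had 2.10 (SE 1.02, adjusted p = 0.081). Without the libraries that stood apart, all 3 passed, with 2.59, 2.85, and 2.10 and adjusted p of 0.00227, 0.00543, and 0.0192 by edgeR. At such counts, Pvalb is the least precise of the 10 genes.

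Lhx6 was at 125, 122, 110, and 118 CPM after 6 h of miR-92a-1-5p and at 65.1, 62.9, 61.5, and 62.4 CPM after 5 d. With miR-124-5p, it was at 107, 110, 102, and 126 CPM and then at 64.0, 63.6, 64.3, and 64.6 CPM. With Mut.oligo, it was at 110, 128, 104, and 107 CPM and then at 62.7, 69.4, 65.8, and 65.2 CPM. Over all conditions of 5 d, the 16 libraries lay between 61.5 and 69.7 CPM, a span of 1.13-fold. Lhx6 fell by 0.90 (SE 0.0793, adjusted p = 6.93e-11), by 0.80 (SE 0.0793, adjusted p = 9.57e-10), and by 0.73 (SE 0.0792, adjusted p = 5.25e-09) on the log2 scale.

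Dlx1 was at 182, 180, 174, and 185 CPM after 6 h of miR-92a-1-5p and at 107, 82.1, 67.3, and 68.3 CPM after 5 d. With miR-124-5p, it was at 182, 152, 169, and 176 CPM and then at 122, 82.4, 69.6, and 72.1 CPM. With Mut.oligo, it was at 180, 196, 151, and 176 CPM and then at 86.3, 63.4, 69.5, and 76.6 CPM. In both miRNA groups the highest library of 5 d was replicate 1, which stood apart, but it was still below all of 6 h. Dlx1 fell by 1.14 (SE 0.125, adjusted p = 5.59e-09), by 0.99 (SE 0.124, adjusted p = 7.73e-08), and by 1.21 (SE 0.125, adjusted p = 2e-09).

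Sst was at 163, 136, 118, and 126 CPM after 5 d of miR-92a-1-5p, at 226, 128, 126, and 118 CPM with miR-124-5p, and at 121, 91.4, 127, and 124.3 CPM with Mut.oligo, and its levels of 6 h are given below with the exposures. Only with miR-124-5p did the times overlap, through replicate 1. Sst fell by 0.52 (SE 0.165, adjusted p = 0.00858) with miR-92a-1-5p and by 0.63 (SE 0.166, adjusted p = 0.00198) with Mut.oligo, and it had -0.47 (SE 0.165, adjusted p = 0.0177) with miR-124-5p, under the minimum change. Without the libraries that stood apart, it fell by 0.58 with miR-92a-1-5p and by 0.68 with miR-124-5p (adjusted p = 3.79e-05 by edgeR). Sst with miR-92a-1-5p lay close to the minimum change and was -0.46 without the batch of 6 h with the highest sum, and between -0.46 and -0.43, under it, without replicate 1 or 2 of 6 h, or replicate 3 or 4 of 5 d. With Mut.oligo, it was -0.47 without replicate 2 of 6 h.

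Npy was at 40.2, 25.6, 32.5, and 29.3 CPM after 6 h of miR-92a-1-5p and at 58.2, 49.9, 37.2, and 42.3 CPM after 5 d. With miR-124-5p, it was at 36.9, 26.9, 32, and 42.3 CPM and then at 85.3, 46.6, 49.5, and 41.0 CPM. With Mut.oligo, it was at 36.4, 31.9, 27.1, and 29.8 CPM and then at 45.7, 42.1, 46.8, and 43.2 CPM, the only condition without overlap. Npy rose with 0.57 (SE 0.182, adjusted p = 0.00893), 0.66 (SE 0.182, adjusted p = 0.00278), and 0.55 (SE 0.183, adjusted p = 0.0122). Without the libraries that stood apart, however, the first 2 values were 0.48 and 0.43 and no longer passed. Without the batch of 6 h with the highest sum, they were 0.74 and 0.80.

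Gad1, Gad2, and Slc32a1 had log2 fold changes between 0.35 and 0.50 in the exposed conditions. Gad1 was at 207, 215, 200, and 194 CPM after 6 h of Mut.oligo and at 289, 260, 279, and 296 CPM after 5 d. It passed there with 0.50 (SE 0.0778, adjusted p = 2.67e-06), just above the minimum change, and was under it with DESeq2 (0.48) and without Mut.oligo replicate 4 of 6 h (0.46) or replicate 1 of 5 d (0.49). Gad2 and Slc32a1 did not reach the minimum change in any exposure. Without the batch of 6 h with the highest sum, Slc32a1 passed in each of them with 0.55, 0.57, and 0.51, and Gad2 with miR-92a-1-5p (0.51). With that batch or the 3 libraries of 5 d left out, Vip, Calb2, Lhx6, and Dlx1 passed in all conditions in the same direction.

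**Figure D2:**
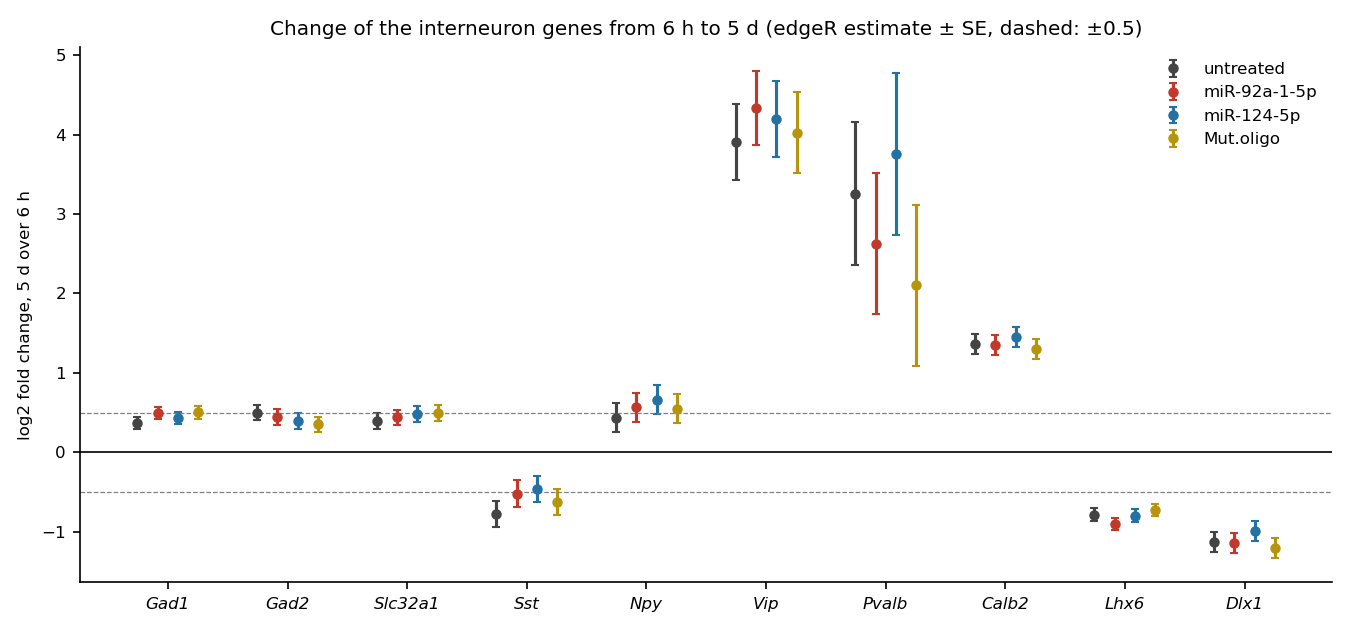
The change of each gene from 6 h to 5 d on the log2 scale in the 4 conditions, as the edgeR estimate with its SE. Vip lies between 3.91 and 4.33 and Dlx1 between -1.21 and -0.99 in all conditions, and the error bars of Pvalb are the widest.

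Whether the change from 6 h to 5 d differed between an exposure and untreated neurons was tested as an interaction. For each of the 3 exposures, 0 of the 10 genes passed by edgeR or by DESeq2, 0 had an unadjusted p under 0.05, and 0% of all 20425 genes passed in each of the 3 tests. The differences of the 10 genes lay between -0.63 and 0.42 for miR-92a-1-5p, between -0.10 and 0.50 for miR-124-5p, and between -1.15 and 0.15 for Mut.oligo, and Pvalb, with SEs of 1.44 to 1.58, set 3 of these 6 ends. Without the 3 libraries of 5 d that stood apart, 0 passed in each, but at an unadjusted p under 0.05 there were Gad1 (0.23, adjusted p = 0.758 by edgeR) and Sst (0.36, adjusted p = 0.882 by edgeR) for miR-92a-1-5p and Gad1 (0.24, adjusted p = 0.865 by edgeR) for Mut.oligo.

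Other genes of interneurons were read from lists, against the median of 0.04 over all genes. No gene of these lists passed in a comparison of exposed with untreated neurons. Of the genes for GABA uptake and breakdown, 4 of 5 rose between the times in untreated neurons and none fell, with a median log2 fold change of 0.73. Aldh5a1 and Abat, enzymes of GABA breakdown, rose with 0.66 and 0.73. Of the Dlx family and the transcription factors that all interneurons share, 4 of 5 tested fell, with a median of -0.78. Dlx5 fell by 1.22 and Dlx2 by 1.21, as Dlx1 did. Of 8 genes of the medial eminence lineage, 1 rose and 3 fell, among them Maf (-0.64) and Satb1 (-0.55). Of 7 genes of the caudal eminence lineage, 2 fell, Npas1 (-1.06) and Sp8 (-0.57), and Prox1, at 0.36, did not pass (adjusted p = 0.0911 by edgeR).

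Of 12 other interneuron peptides and subtype genes, 7 rose and 2 fell, with a median of 0.68. Rspo2 (0.82) and Calb1 (0.94), which encodes the calcium-binding protein calbindin, rose, and Cort, a peptide related to somatostatin, fell from 7.32 ± 1.92 to 1.35 ± 0.680 CPM, by 2.47 on the log2 scale. Of 6 channel and contact genes of fast-spiking cells, 2 rose, the potassium channel gene Kcnc2 (0.83) and the gap junction gene Gjd2 (0.71). Elfn1, with -0.25, stayed under the minimum change. Cort was thus lower at the later time, as was Sst, while Calb1 and Calb2 were higher. In the list of Cort, the subtype gene Chodl rose (0.62) and Nos1 did not pass (-0.0041), so the list as a whole did not move with Sst. Npy, which many somatostatin cells also make, was not lower.

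Markers of other cells also differed between the times. Of 10 genes of excitatory cortical neurons, 2 rose, Camk2a (1.64) and Slc17a7 (1.78), and 6 fell, among them Neurod2 (-1.73), with a summed level of 1561 to 1691 CPM after 6 h and of 979 to 1432 CPM after 5 d. Of 7 astrocyte genes, 7 rose, among them Slc1a3 (1.77), Gja1 (2.67), and Aldoc (1.96), with a summed level of 301 to 585 CPM after 6 h and of 1223 to 2427 CPM after 5 d. Of 6 genes of proliferating cells, 6 fell, among them Cdk1 (-1.71), Ccnb1 (-1.70), and Top2a (-1.61), with a summed level of 186 to 315 CPM after 6 h and of 76.5 to 80.4 CPM after 5 d. Of 9 genes of all neurons, 2 rose and 2 fell, with Syt1 at 0.57, Nefm at -1.36, and Snap25, which did not pass, at 0.49.

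Striatal projection neurons, which also make GABA, were read from 10 genes, of which 3 rose and 3 fell. Ebf1 fell by 3.05, Six3 by 0.70, and Ppp1r1b rose with 1.36, and the summed level was 168 to 215 CPM after 6 h and 146 to 270 CPM after 5 d. Of 12 activity-regulated genes, 5 rose and 3 fell, with Egr1 at 2.66, Arc at 1.79, and Vgf at -1.28. Of 8 microglia genes, 2 rose, Csf1r (0.63) and Cx3cr1 (0.93), but P2ry12, at 0.89, did not pass, and their sum stayed at 8.66 to 17.3 CPM after 6 h and 11.5 to 21.7 CPM after 5 d. Of 7 genes of the oligodendrocyte lineage, 2 fell, Sox10 (-1.38) and Pdgfra (-1.06). Of the 6 endothelial genes, 5 were tested and 1 rose, Pecam1 (1.43), with Cdh5 at -1.27 and Kdr at 0.50, and 1 of the 6 had no reads in untreated neurons after 6 h. In none of the other lists was a gene at 0 in all untreated libraries of a time. The part of these other cells in the changes of the interneuron genes was not tested.

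The exposures were next compared to untreated neurons at each time. After 6 h, 0 of the 9 genes tested passed by edgeR for any exposure, where 0% of all 18755 genes tested passed in each comparison. Pvalb had at most 6 reads in a library of 6 h and was not tested. With an unadjusted p under 0.05, there was 1 gene for miR-92a-1-5p, 1 for miR-124-5p, and 2 for Mut.oligo, where 4.75%, 4.54%, and 9.49% of all genes were below it. By DESeq2, 0, 0, and 0 genes passed, and 0, 0, and 1 had an adjusted p under 0.05 without the minimum change. The 3 comparisons share the untreated libraries.

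Gad1 had the smallest p in each of them. It was at 234, 266, 228, and 246 CPM in untreated neurons, at 208, 207, 228, and 244 CPM after miR-92a-1-5p, at 228, 221, 211, and 210 CPM after miR-124-5p, and at 207, 215, 200, and 194 CPM after Mut.oligo exposure. All libraries of miR-124-5p and Mut.oligo were below all untreated ones, if narrowly for miR-124-5p, and those of miR-92a-1-5p overlapped with them. The log2 fold changes were -0.14 (SE 0.0522, adjusted p = 0.999), -0.16 (SE 0.0523, adjusted p = 1), and -0.26 (SE 0.0524, adjusted p = 0.292 by edgeR). Over the alternatives, the adjusted p lay between 0.0108 and 1 for miR-92a-1-5p, between 0.798 and 1 for miR-124-5p, and between 0.000416 and 0.857 for Mut.oligo. Without the batch with the highest sum, Gad1 was at -0.14, -0.17, and -0.28, and again 0 of the 9 genes passed.

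Sst stood beside it. It was at 237, 221, 248, and 218 CPM in untreated neurons, at 205, 209, 189, and 182 CPM after miR-92a-1-5p, at 211, 209, 167, and 226 CPM after miR-124-5p, and at 178, 228, 181, and 145 CPM after Mut.oligo exposure. The libraries of miR-92a-1-5p did not overlap with the untreated ones. The log2 fold changes were -0.24 (SE 0.116), -0.18 (SE 0.116), and -0.34 (SE 0.117), with adjusted p of 0.999, 1, and 0.418 by edgeR. Over the alternatives with edgeR or DESeq2, the lowest adjusted p of Sst was 0.00157 for miR-92a-1-5p, 0.798 for miR-124-5p, and 0.00517 for Mut.oligo. Groups that did not overlap were thus found for 1 of 9 genes in each comparison, Sst for miR-92a-1-5p and Gad1 for the other two, against 3.41%, 3.45%, and 4.51% of all genes.

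Since untreated and exposed libraries of the same experiment batch can be compared directly, the differences were also taken within batches, here at 6 h and further below at 5 d. Gad1 and Sst were brought forward from these same libraries of 6 h. Their signs within batches are therefore a description and no further test. In the 4 batches that miR-92a-1-5p shared with untreated neurons, Gad1 was lower in 4 of 4, by log2 values of -0.18 to -0.11, and Sst in 4 of 4, by -0.27 to -0.19, where 12.1% of all genes were lower in every batch. Npy was also lower in 4 of 4 (-0.23 to -0.02), whereas Gad2 (0.03 to 0.11), Calb2 (0.11 to 0.21), and Lhx6 (0.0021 to 0.16) were higher in 4 of 4, where 12.3% of all genes were higher in every batch. In the 2 batches shared with miR-124-5p, Gad1 was at -0.14 and -0.12 and Sst at -0.13 and -0.07. In the 2 shared with Mut.oligo, Gad1 was at -0.29 and -0.24 and Sst at -0.41 and -0.33. Slc32a1 (-0.12 and -0.08, then -0.20 and -0.05) and Dlx1 (-0.04 and -0.02, then -0.21 and -0.05) were also lower in both batches of these 2 exposures. Calb2 was higher in both with miR-124-5p (0.07 and 0.15), and Pvalb, near the floor, with Mut.oligo (0.40 and 1.30). With 2 batches, 29.4% and 34.6% of all genes were lower in both, and 24.2% and 21.7% were higher.

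When the batch was added as a covariate, the estimates hardly moved and their SE became smaller. This fit, too, uses the libraries from which Gad1 and Sst were brought forward. Gad1 had -0.14 (SE 0.0280, adjusted p = 0.0295 by edgeR) for miR-92a-1-5p, -0.13 (SE 0.0343, adjusted p = 0.798) for miR-124-5p, and -0.23 (SE 0.0346, adjusted p = 0.0267) for Mut.oligo. Sst had -0.24 (SE 0.0479, adjusted p = 0.0294), -0.17 (SE 0.0584, adjusted p = 0.798), and -0.29 (SE 0.0597, adjusted p = 0.109). These values were below 0.05 for both genes with miR-92a-1-5p and for Gad1 with Mut.oligo, where 0.549%, 0%, and 0.0587% of all genes were lower at an adjusted p under 0.05 alone, but none reached the minimum change. Compared to Mut.oligo, the control for sequence, Gad1 was at 0.12 (SE 0.0523, adjusted p = 1) after miR-92a-1-5p and at 0.10 (SE 0.0524, adjusted p = 1) after miR-124-5p, so that its estimates lay above the control for both miRNAs, without passing. Sst was likewise above Mut.oligo, at 0.10 (SE 0.116) after miR-92a-1-5p and at 0.16 (SE 0.117) after miR-124-5p, without passing.

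**Figure D3:**
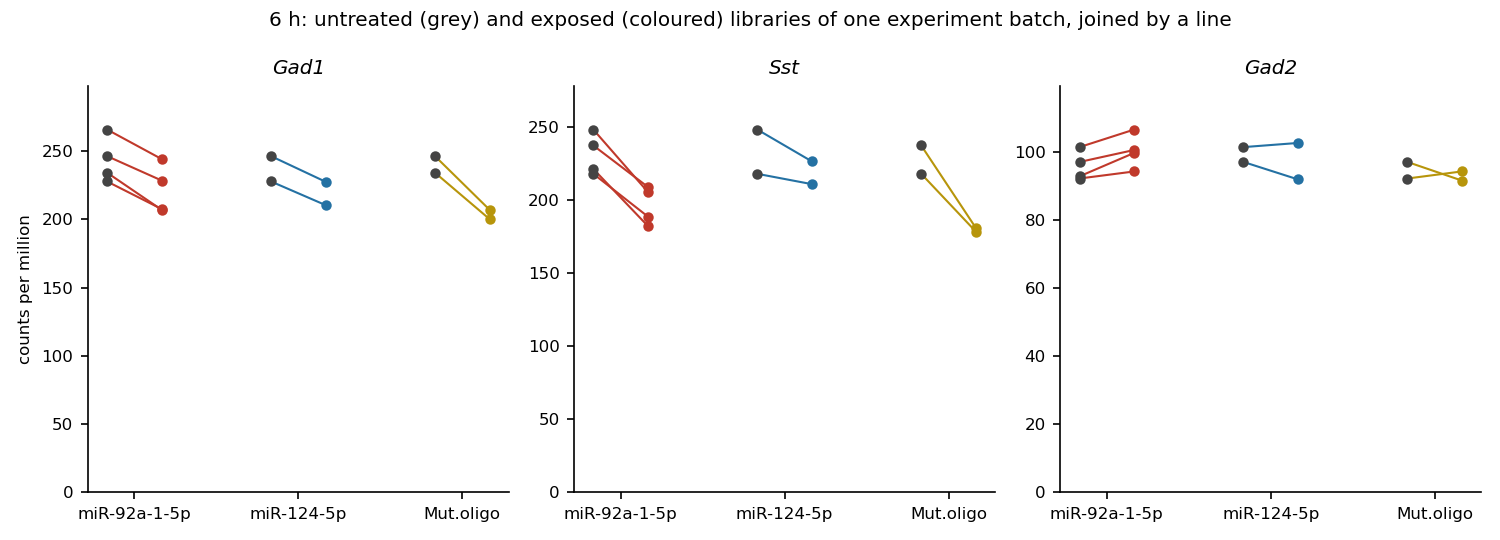
CPM of Gad1, Sst, and Gad2 after 6 h in untreated libraries and exposed libraries of the same experiment batch, joined by lines, with axes from 0. Gad1 and Sst, brought forward from these same libraries, are lower in the exposed library of all 8 pairs, and Gad2 is higher in all 4 pairs of miR-92a-1-5p. The pairs reuse untreated libraries between exposures and are not independent.

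The other genes had p over 0.05 at 6 h. Gad2, Slc32a1, Npy, Calb2, Lhx6, and Dlx1 had log2 fold changes between -0.20 and 0.15 over the 3 comparisons. Vip, with 3 to 28 reads in a library, was at -0.13, -0.02, and -0.34 with SEs of 0.467 to 0.508, so that smaller differences in Vip were not detectable at this depth. Against Mut.oligo, 0 of 9 genes passed for each miRNA by edgeR, where 0% of all genes did, and at an unadjusted p under 0.05 there was 1, Gad1 for miR-92a-1-5p, and by DESeq2 there were 0.

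After 5 d, 0 of the 10 genes passed by edgeR for any exposure compared to untreated neurons, where 0.00517% of all 19333 genes passed for miR-92a-1-5p and 0% for the other two. By DESeq2, 0, 0, and 0 genes passed, and at an unadjusted p under 0.05 there were also 0, 0, and 0, where 3.63%, 2.60%, and 2.79% of all genes were below it. None of the 10 genes had groups that did not overlap, against 2.84%, 1.67%, and 2.03% of all genes. The genes with the smallest p were Calb2 for miR-92a-1-5p, with 0.14 (SE 0.123, adjusted p = 1), and Gad2 for the other two.

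For Gad2, untreated neurons were at 132, 113, 187, and 117 CPM after 5 d, miR-124-5p at 113, 130, 123, and 128 CPM, and Mut.oligo at 133, 110, 107, and 116 CPM. The value of 187 CPM, in untreated replicate 3, lay apart, and the groups overlapped. The log2 fold changes were -0.13 (SE 0.113, adjusted p = 1) and -0.20 (SE 0.113, adjusted p = 0.999 by edgeR), and that of miR-124-5p was 0.02 without untreated replicate 3. Gad1 and Sst, whose estimates were below 0 at 6 h, had -0.02 and 0.02 with miR-92a-1-5p, -0.09 and 0.13 with miR-124-5p, and -0.14 and -0.20 with Mut.oligo at 5 d. Within the 2 batches shared with miR-92a-1-5p, Gad1 was at 0.04 and 0.16 and Sst at -0.03 and 0.14. There, Gad1, Gad2, Vip, and Calb2 were higher in both and Lhx6 and Dlx1 lower, where 27.6% and 28.4% of all genes were. In the 2 shared with miR-124-5p, Gad1 was at -0.03 and 0.10 and Sst at -0.13 and 0.06. In the 3 shared with Mut.oligo, they lay between -0.05 and 0.06 and between -0.21 and 0.09. Pvalb had the largest estimates, down to -1.16 (SE 0.740) for Mut.oligo, with 117 reads in the untreated libraries, 82 of them in 1 library. Without the 3 libraries that stood apart, its sign turned for each exposure, from -0.72, -0.24, and -1.16 to 0.57 (SE 0.550), 0.19 (SE 0.563), and 0.18 (SE 0.523). The other 9 genes then lay between -0.12 and 0.23, and none of the 10 passed. Against Mut.oligo, 0 of 10 genes passed for each miRNA by edgeR, where 0% of all genes did, with 0 at an unadjusted p under 0.05 and 0 by DESeq2. Without the 3 libraries, 1 gene had an unadjusted p under 0.05, Gad2 for miR-92a-1-5p (0.15, adjusted p = 1 by edgeR).

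**Figure D4:**
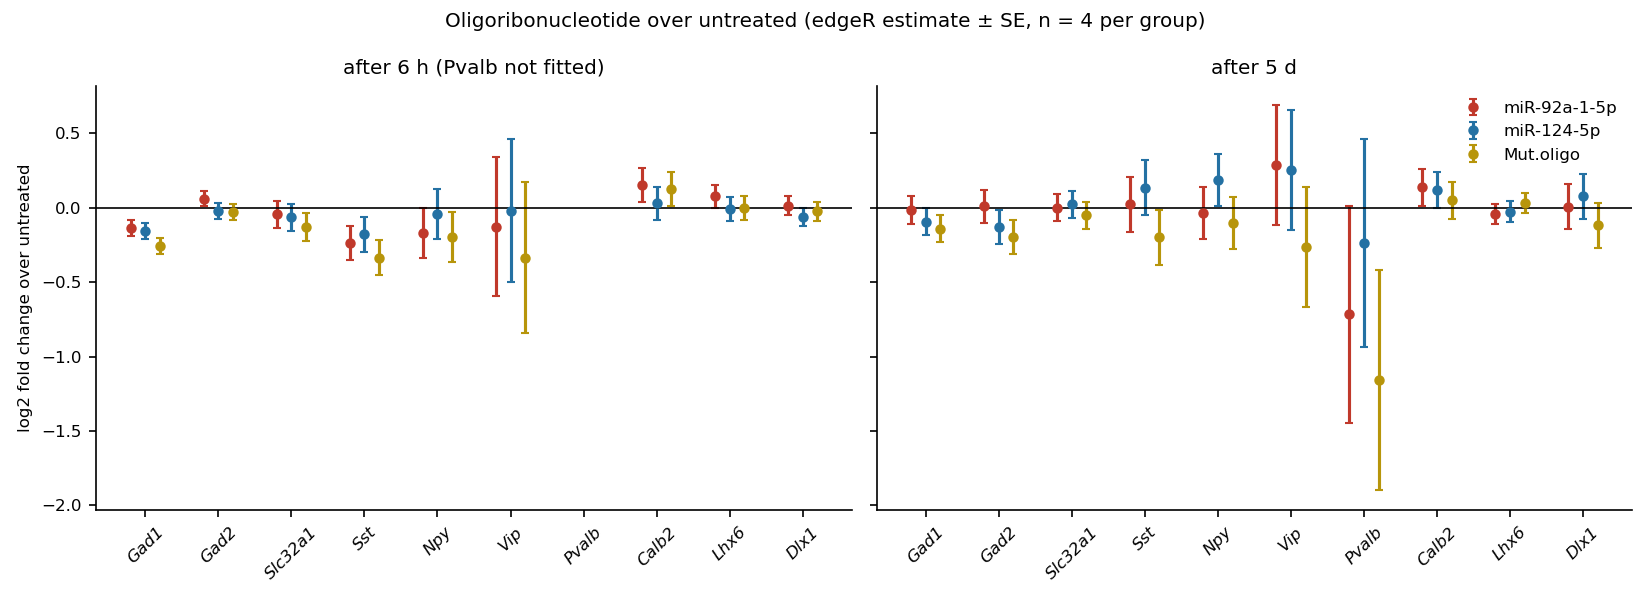
The log2 fold change of each gene after exposure to an oligoribonucleotide compared to untreated neurons, as the edgeR estimate with its SE, at 6 h on the left and 5 d on the right. Gad1 and Sst lie below 0 for all 3 exposures at 6 h, between -0.34 and -0.14, and no estimate passed the test.

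Libraries of the same experiment batch differed less on average than 2 of different batches for 10 of 10 genes at 6 h and 10 of 10 at 5 d, against 79.3% and 84.0% of all genes tested. At 5 d, the mean difference on the log2 scale was 0.11 within and 0.35 between batches for Sst, 0.06 and 0.29 for Dlx1, and 0.24 and 0.83 for Vip. At 6 h, it was 0.12 and 0.33 for Npy and 0.13 and 0.14 for Gad1.

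In the 3 libraries of 5 d that stood apart, 5 of the 10 genes were above all other 13 libraries, against 5.26% of all genes tested at 5 d. The libraries and the 12 transcription factors were chosen after their values were seen, and the 10 genes are not independent of each other. These shares are therefore a description and no test. Gad1 was at 328 to 418 CPM against 254 to 312 CPM, Slc32a1 at 79.6 to 97.3 against 64.4 to 77.4 CPM, Sst at 163 to 226 against 91.4 to 141 CPM, Npy at 58.2 to 85.3 against 37.2 to 51.0 CPM, and Dlx1 at 99.8 to 122 against 63.4 to 86.3 CPM. Lhx6 did not follow, with 62.8 to 65.1 against 61.5 to 69.7 CPM, while Sst, also a gene of medial eminence cells, did. Pvalb was at 0.368 to 1.60 CPM against 0.101 to 0.455 CPM, overlapping in 1 library. Of the 12 transcription factors of midbrain, hindbrain, and diencephalon, 9 were above all other libraries, for example Barhl1 at 1.38 to 1.99 against 0.0201 to 0.308 CPM and Tfap2b at 1.79 to 2.44 against 0 to 0.682 CPM. The part of cells from such regions in the levels of the interneuron genes was not tested.

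**Figure D5:**
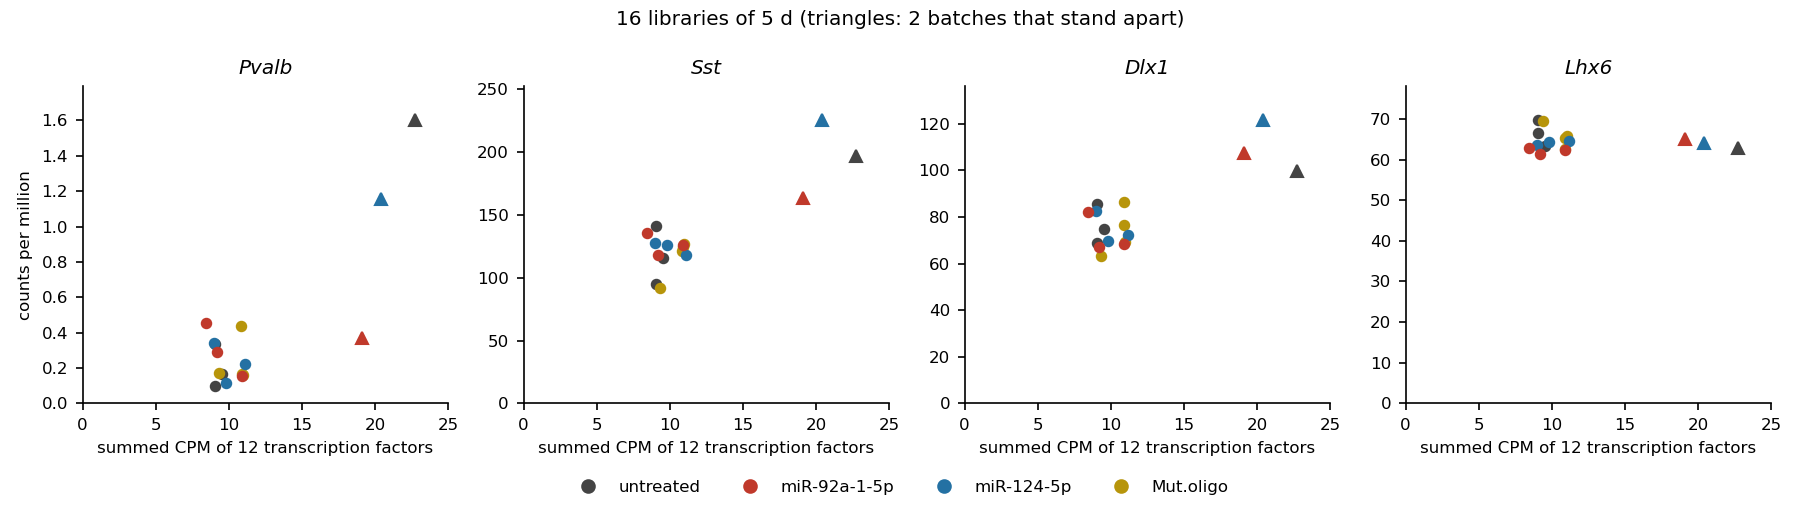
CPM of Pvalb, Sst, Dlx1, and Lhx6 in the 16 libraries of 5 d, against the summed CPM of 12 transcription factors of midbrain, hindbrain, and diencephalon, with axes from 0. The 3 triangles at 19.1 to 22.7 CPM are the libraries that stood apart, in which Sst and Dlx1 are above the other 13 and Lhx6 is not.

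After the mean of each of the 8 groups was taken off, the 32 libraries also show which genes varied together, given as a description, since they share batches and depth. Among the 10 genes, Slc32a1 and Npy had a Pearson r of 0.87, Sst and Dlx1 of 0.73, and Vip and Lhx6 of -0.67. Of 13655 genes with a mean of at least 1 CPM, those most like Gad1 were Pnoc (0.85), which encodes a neuropeptide of GABA neurons, Alkbh5 (0.79), and Sept2 (0.78). For Sst, they were Dlx6 (0.90), Scg3 (0.89), and Copg1 (0.87), the first a Dlx factor of interneurons and Scg3 a protein of secretory granules. For Npy, they were Tsc22d3 (0.89), Gpx1 (0.89), and Aldh2 (0.87), and for Vip, they were Fas (0.89), Ccdc190 (0.88), and Scrg1 (0.88).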

How the data were processed

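RNA-seq libraries of 32 neuronal cultures were assigned to 8 groups by their labels. As described by the authors, reads of stranded libraries were mapped with STAR to GRCm38 and counted per gene and strand with featureCounts, and the deposited table holds raw counts without normalization. Identifiers of 49412 of the 49671 genes had a symbol in GENCODE M21, and 259 did not. Genes had to reach 5 counts in 3 libraries and were fitted with edgeR 4.0.16 (TMM, quasi-likelihood test, no covariate), at each time over 16 libraries and for time changes and interactions over all 32. The alternative tool was DESeq2 1.42.0. In simulated data for the untreated time change, with 19911 genes, edgeR recovered 94% of genes changed by a log2 value of 1. For miR-92a-1-5p compared to untreated neurons at 6 h, it recovered 88%. The simulation held no batch structure, and genes with counts as low as those of Pvalb were not among those changed. Changes under a log2 value of 1 were not simulated, so it does not tell how often differences as small as those between exposures are recovered. CPM use the total of a library, and batch differences use TMM-scaled log2 CPM with a prior count of 2. Replicates are labelled biological, but nothing says that they came from separate litters, so that p-values measure the spread between these libraries. Replicates differed beyond sampling noise (chi-square per degree of freedom of at least 7.1 over 48 pairs). The genes, lists, and tests were chosen with earlier results of these data known, and the list of 12 transcription factors and the fits without 2 batches of 5 d or 1 of 6 h after their values were seen. All 10 genes are named with their levels. Other genes are named if among the 3 with the smallest p of their list in the untreated time change, or the 3 most like Gad1, Sst, Npy, or Vip. Some genes that this rule names are not reported here. En1, Pax7, Barhl1, Tfap2b, Chodl, and Nos1 were chosen after their values were seen. Dlx6os1, with 2 identifiers, was not tested. The sequence of miR-124-5p and the promoter of Calb2 are not shown.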

Additional observations from a re-analysis of the deposited data

Results flagged for a closer look

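In 80 groups of 4 libraries, 5 held a library whose gap to the nearest other one exceeded Dixon's 95% critical share of the range of the group, where chance alone flags about 1 in 20 groups. Of these, 2 were among the libraries of 5 d that stood apart, with Sst at 226 CPM in miR-124-5p replicate 1 against 118 to 128 CPM in the others, and Pvalb at 1.60 CPM in untreated replicate 3 against 0.101 to 0.336 CPM. In Mut.oligo replicate 2 of 5 d, Sst was at 91.4 CPM against 121 to 127 CPM, and Slc32a1 at 64.4 CPM against 73.0 to 74.2 CPM. Pvalb was at 0.435 CPM in Mut.oligo replicate 1 of 5 d against 0.162 to 0.172 CPM, which is 22 reads against 9 to 10.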

How the results depend on the processing

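In 13 of the 17 comparisons, those between exposures and the interactions, 0 of the 10 genes passed in any alternative. For the time changes, the count of genes that passed without a minimum fold change was 10 in untreated neurons and 10 after miR-124-5p, against 6 and 6. With at least 10 counts in every library, Vip and Pvalb could not be tested, and 4 and 4 passed. Leaving out 1 library at a time gave 5 to 8 in untreated neurons, 6 to 8 after miR-92a-1-5p, 6 to 8 after miR-124-5p, and 6 to 8 after Mut.oligo. For single genes, 635 of 671 alternatives kept direction and call, 16 lost and 16 gained it, and 4 reversed. All 4 were Gad2 after miR-124-5p exposure at 5 d, with 0.046 with the batch as a covariate, 0.047 with DESeq2 and the batch, 0.083 without the 2 batches that stand apart, and 0.017 without untreated replicate 3 of 5 d, the highest of -0.19 to 0.017 with 1 library left out. The cause was not tested. Without the batch of 6 h with the highest sum, 8, 8, 7, and 8 genes passed in the time changes of untreated neurons, with miR-92a-1-5p, with miR-124-5p, and with Mut.oligo. The lost calls were those of Sst, Npy, Pvalb, and Gad1 in time changes.

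Over all genes tested, more passed with miR-92a-1-5p compared to untreated neurons when the batch was added, 39 at 6 h and 68 at 5 d against 0 and 1 (with DESeq2, 26 and 118), 31 at 5 d without the 2 batches, and 5 at 6 h without the batch with the highest sum. No other comparison between exposures exceeded 19 in these fits. None of these genes is among the 10.

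Replicate numbers were not taken as pairs, since deviations of same-numbered libraries correlated at -0.22 to 0.25 at 6 h and at -0.21 to 0.41 at 5 d, not all over 0.1. At 5 d, the number follows the experiment batch in part, with 13 of 24 same-numbered pairs in 1 batch and 13 of 24 over 0.1, against 2 and 5 of 24 at 6 h. With the replicate number as a block, 6, 7, 6, and 7 genes passed in the time changes of untreated neurons, with miR-92a-1-5p, with miR-124-5p, and with Mut.oligo, respectively, and 0 in all other comparisons. Gene by gene, 0 of 170 calls differed from those without the block. Depth limits Vip at 6 h and Pvalb at both times.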
